A study of Mus musculus with 9 samples.

Results

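Transcripts of the muscle nicotinic acetylcholine receptor and of the proteins that gather it under the nerve were followed through the differentiation of C2C12 cells, an established mouse myoblast line that fuses into myotubes when growth serum is withdrawn. The 10 genes were taken by symbol, matched through the Ensembl identifiers of the count table: Chrna1, Chrnb1, Chrnd, Chrng and Chrne (receptor subunits), Agrn, Lrp4, Musk and Dok7 (the agrin pathway) and Rapsn (the receptor's anchor). They are 10 of 47729 genes in the table. A filter of at least 1 CPM (read counts scaled to library size, as counts-per-million) in at least 3 of the 9 libraries let 9 of the 10 through to testing; Chrne stayed under it and is described by its counts. The cells were of 3 kinds: a control that had received a guide RNA with no target (WT), cells with Per1 knocked out by CRISPR-Cas9 (Per1KO) and cells with Per2 knocked out the same way (Per2KO). Both genes belong to the negative limb of the circadian clock, and the series title names differentiation and muscle regeneration as depending on circadian phase. Cells of each kind were taken while growing in fetal bovine serum (day 0) and again after 3 and 5 days of differentiation in horse serum, and 1 library was made per kind and day. Whether a knockout was 1 clone or a pool is not given in the sources used here. The labels also name whole muscle as the tissue, while the growth protocol describes the cultured line.

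The muscle receptor is a pentamer of alpha (Chrna1), beta (Chrnb1) and delta (Chrnd) subunits with either gamma (Chrng) or epsilon (Chrne). Gamma belongs to the fetal receptor, and epsilon takes its place in innervated adult muscle. At the neuromuscular junction, agrin binds Lrp4, which activates the kinase MuSK; Dok7 binds and activates MuSK inside the cell, and rapsyn holds the receptors together in clusters. In cultured myotubes no nerve is present, and the receptor genes are known to be switched on by the myogenic factors MyoD and myogenin, which bind E-boxes.

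The promoters of the fetal and the adult subunit are shown because their levels are compared below, and those of Chrna1 and Musk as further members with E-boxes; Chrnb1, Dok7 and Agrn are given by their motif counts. Each sequence is RefSeq's on GRCm38.p6, read on the gene's strand, 150 bases long, and runs from 180 to 31 bases before the RefSeq start site; capitals mark CANNTG (the E-box core, its own reverse complement, N any base) and, in Chrne, CCGGAA (the core of the N-box, searched on both strands).
Chrng: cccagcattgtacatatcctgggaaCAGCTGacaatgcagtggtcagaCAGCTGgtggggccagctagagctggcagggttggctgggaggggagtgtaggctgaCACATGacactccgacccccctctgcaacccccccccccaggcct
Chrne: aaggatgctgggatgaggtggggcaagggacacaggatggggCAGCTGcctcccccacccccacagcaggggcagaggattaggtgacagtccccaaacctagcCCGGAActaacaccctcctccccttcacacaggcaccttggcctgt
Chrna1: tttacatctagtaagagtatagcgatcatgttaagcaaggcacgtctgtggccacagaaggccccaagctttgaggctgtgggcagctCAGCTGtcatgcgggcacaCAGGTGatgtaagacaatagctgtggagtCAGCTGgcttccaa
Musk: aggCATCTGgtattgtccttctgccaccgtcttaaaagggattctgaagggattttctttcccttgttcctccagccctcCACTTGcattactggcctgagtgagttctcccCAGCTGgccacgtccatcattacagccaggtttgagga
Their positions are chr1:87205631-87205780 on the plus strand for Chrng, chr11:70619225-70619374 on the minus strand for Chrne, chr2:73580369-73580518 on the minus strand for Chrna1 and chr4:58285782-58285931 on the plus strand for Musk. The Chrng start in RefSeq lies 1154 bases inside the gene as GENCODE draws it. In the 250 bases before the start, Chrng, Chrna1, Musk and Chrnb1 each hold 3 CANNTG, a number reached or passed by 12.2% of 32851 mouse promoters of the same length. Chrng carries its E-boxes 155, 132 and 75 bases before the start, and 2 of the 3 read CAGCTG, a form included in CANNTG. Chrna1 also has 2 CAGCTG; 1.26% of the promoters have at least 2. Chrne holds 1 CANNTG, which also reads CAGCTG, 138 bases before its start, and 1 CCGGAA 76 bases before it; at least 1 CANNTG is found in 66.2% of promoters and at least 1 CCGGAA in 12.03%. Dok7 and Agrn have a pair of RefSeq starts each: those of Dok7 hold 1 and 0 CANNTG and those of Agrn 0 and 1, with 0 CAGCTG. Of the 10 genes, 7 matched the promoter table. These matches describe letters only.

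Chrnd (chr1:87190607-87200070) and Chrng (chr1:87204657-87212694) lie in a row on the plus strand of chromosome 1 with 4586 bases and 0 annotated genes between them. Chrnb1 (chr11:69784036-69795943) and Chrne (chr11:70614883-70619216) share chromosome 11, on the minus strand. Chrna1 (chr2:73563215-73580338), Rapsn (chr2:91035620-91045729) and Lrp4 (chr2:91457511-91513779) are on chromosome 2, Musk (chr4:58285960-58374303) and Agrn (chr4:156165290-156197488) on chromosome 4, and Dok7 (chr5:35056766-35087839) on chromosome 5. These are whole genes, exons and introns, in GENCODE M21 on GRCm38, the assembly that mm10 names. At most 4.09% of the 31-base words of a member's exons recur in other genes, the value for Chrna1, so reads are rarely shared with a copy. Chrne overlaps 4930544D05Rik on the opposite strand with 0 shared exonic bases, and Rapsn overlaps Gm13778 by 4 exonic bases.

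The WT libraries held 5020385 to 6773320 counts and the knockout libraries 41997763 to 48051824, and the WT titles alone carry a lane suffix. Depth and lane therefore cannot be told apart from genotype, and no within-batch value between WT and a knockout can be had. A count of 0 allows up to 3 counts, 0.423 to 0.659 CPM in WT and 0.0590 to 0.0730 CPM in the knockouts; intervals and such limits cover counting error only. Per1 in Per1KO was 20.8, 32.4 and 28.9 CPM on days 0, 3 and 5 against 35.5, 33.7 and 30.96 CPM in WT (log2 -0.34 ± 0.22, SE, adjusted p = 0.31). Per2 in Per2KO was 3.50, 9.11 and 8.37 CPM against 9.73, 11.5 and 20.4 CPM (log2 -1.02 ± 0.24, adjusted p = 0.023). Neither differed between the knockouts past the threshold, and a count over the whole gene does not read an edited site. Markers of myoblasts and myotubes were present in every library, all 5 motor neuron markers stayed under 1 CPM with Mnx1, Chat and Slc18a3 at 0, and 4 of 5 Schwann cell markers stayed under 1 CPM. Endothelial markers summed to at most 3.62 CPM, macrophage markers to 2.85 and adipocyte markers to 0.0590. The summed level of 4 fibroblast markers was 24.1 to 165 CPM in WT, 7.65 to 13.3 in Per1KO and 8.02 to 15.3 in Per2KO; Thy1 and Col6a6 were at 0 and Dpt alone reached 142 CPM, in WT day 5.

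All levels below are CPM after TMM scaling (the trimmed mean of M values). Differences are log2 fold changes with standard errors from edgeR's quasi-likelihood test, called at a Benjamini-Hochberg adjusted p under 0.05 over 13324 genes. Day effects were fitted with genotype as a term and genotype effects with day as a term, so the 3 genotypes stand in for replicates of a day and the 3 days for replicates of a genotype. The p-values speak of these cell populations, not of independent clones.

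Most receptor and clustering genes rose during differentiation, and those that passed were higher on days 3 and 5 than on day 0 in each kind of cell. Of the 9 tested members, 7 rose from day 0 to day 3, when 35% of all tested genes were called and 18.1% were called higher. By day 5, 8 of 9 had risen, against 46.1% of all tested genes called in either direction and 23.2% called higher. The median change of the 9 was log2 0.97 on day 3 and 1.17 on day 5, beside -0.01 over all tested genes at both times. In bulk RNA, fewer cells expressing a gene and less of its RNA per cell cannot be told apart.

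Chrng, the fetal gamma subunit, had the steepest course of the receptor genes. Its level was 45.0, 495 and 806 CPM in WT on days 0, 3 and 5, 10.7, 208 and 371 CPM in Per1KO, and 10.4, 189 and 301 CPM in Per2KO. Every library of days 3 and 5 lay above every library of day 0, and within each day WT was highest. The rise was log2 3.96 ± 0.21 by day 3 (adjusted p = 4.23e-05) and 4.70 ± 0.22 by day 5 (adjusted p = 7.61e-06).

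Chrna1, which carries most of the acetylcholine binding site, was already high before differentiation. It measured 859, 1631 and 1831 CPM in WT, 854, 1317 and 1695 CPM in Per1KO, and 821, 1351 and 1554 CPM in Per2KO. The day 0 libraries lay close together, and all later libraries lay above them. Its rise was log2 0.76 ± 0.13 by day 3 (adjusted p = 0.00328) and 1.00 ± 0.13 by day 5 (adjusted p = 0.00055).

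Chrnb1, the beta subunit, went from 119 to 228 and 213 CPM in WT, from 132 to 243 and 325 CPM in Per1KO, and from 114 to 240 and 287 CPM in Per2KO. The knockouts were the highest on day 5, and no day 0 library reached a later one. Its rise was log2 0.97 ± 0.14 by day 3 (adjusted p = 0.00164) and 1.17 ± 0.14 by day 5 (adjusted p = 0.000392).

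Chrnd, the delta subunit, was 174, 268 and 454 CPM in WT, 150, 243 and 344 CPM in Per1KO, and 211, 232 and 283 CPM in Per2KO. Per2KO began highest and ended lowest of the 3. The day 3 change of log2 0.47 ± 0.18 did not pass (adjusted p = 0.0823), though it did without the Per2KO day 0 library (adjusted p = 0.0219), and the day 5 rise of 1.00 ± 0.19 did (adjusted p = 0.00347).

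**Figure D1:**
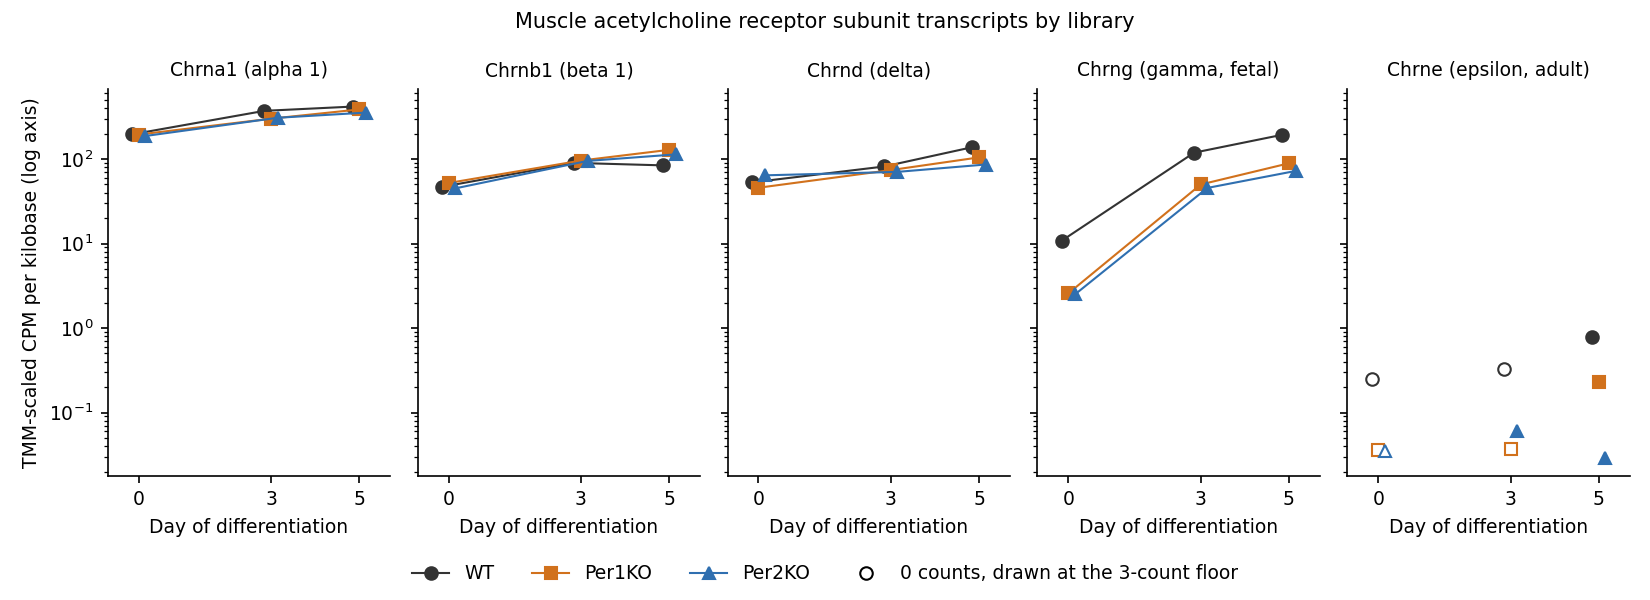
Level of the 5 receptor subunits in CPM per kilobase of exon (log axis) against day of differentiation, one line per genotype, one library per point. Open points are counts of 0, drawn at the level of 3 counts; Chrna1 is on top in all 9 libraries, Chrne at the bottom, and Chrng climbs from 2.50 to 10.8 CPM per kilobase on day 0 to between 72.3 and 194 on day 5.

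Between genes, levels were compared per kilobase of exon. Chrna1 was highest in each of the 9 libraries, at 187 to 196 CPM per kilobase on day 0 and 354 to 418 on day 5, and its level was 2.92 to 4.56 times that of Chrnd. Chrnb1 and Chrnd stood close to each other, with Chrnb1 at 0.609 to 1.35 times Chrnd and their order differing between libraries, so these neighbours are not separated. Chrng was above Chrne alone on day 0 in all genotypes. On days 3 and 5 it stood next below Chrna1 in WT, with 1.46 and 1.40 times the level of Chrnd, and was still below Chrnb1 and Chrnd in both knockouts, at 0.675 and 0.851 times Chrnd in Per1KO and 0.646 and 0.839 times in Per2KO. This order rests on single libraries and was not tested.

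Chrne, the adult epsilon subunit, was almost unread. Its counts were 0, 0 and 6 in WT on days 0, 3 and 5, 0, 0 and 16 in Per1KO, and 0, 5 and 2 in Per2KO. In scaled units its highest level was 1.32 CPM, in WT day 5, and 5 of the 9 libraries had 0 counts. The highest level in a knockout was 0.384 CPM, in Per1KO day 5. Libraries thinned to the smallest total had 6 counts in WT day 5, 2 in Per1KO day 5 and 0 elsewhere.

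The fetal subunit outweighed the adult one in all 9 libraries. In WT day 5, where 3672 Chrng counts stood beside 6 of Chrne, epsilon made up 0.163% of the counts of both genes (exact Clopper-Pearson 95% interval 0.0599 to 0.355%). The share was 0.103% in Per1KO day 5 (0.0591 to 0.168%), 0.0545% in Per2KO day 3 (0.0177 to 0.127%) and 0.0162% in Per2KO day 5 (0.00196 to 0.0584%). The intervals of WT day 5 and Per1KO day 5 overlap, and that of Per2KO day 5 ends below both shares. Where Chrne was 0, the limit that 3 counts allow was 0.940% in WT day 0 and 0.110% in WT day 3. It was 0.567% in Per1KO day 0, 0.0298% in Per1KO day 3 and 0.566% in Per2KO day 0. The exact 95% intervals ended higher, at 1.15%, 0.136%, 0.695%, 0.0367% and 0.694% in the same order.

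Per kilobase, Chrng exceeded Chrne 248-fold in WT day 5 (95% counting interval 114 to 677), 392-fold in Per1KO day 5 (242 to 686), 744-fold in Per2KO day 3 (319 to 2292) and 2511-fold in Per2KO day 5 (695 to 20740). The libraries with 0 Chrne counts give lower bounds, taking 3 counts per library for Chrne. In WT, Chrng was at least 43.2-fold higher on day 0 and 368-fold on day 3. In Per1KO the bounds were 71.6-fold on day 0 and 1361-fold on day 3, and in Per2KO 71.7-fold on day 0. The upper ends of the exact 95% intervals for Chrne would give smaller bounds. The log2 ratio of the counts of Chrng to Chrne, with 0.5 added to each, was compared by exact permutation within day or genotype (two-sided, 27 arrangements, smallest possible p 0.037). It was 0.92 higher in the knockouts than in WT (p = 0.444, adjusted p = 0.667 over the 3 comparisons by exact permutation), 1.64 higher on days 3 and 5 than on day 0 (p = 0.259, adjusted p = 0.667, exact permutation), and lower by 0.71 on day 5 than on the earlier days (log2 -0.71, p = 0.667, adjusted p = 0.667, exact permutation). With 27 arrangements and 3 comparisons, a single difference could not have passed after adjustment, so these tests say nothing on whether the ratio shifted. The 5 libraries with 0 Chrne counts take their ratio from the Chrng count and the depth alone.

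Among the clustering genes, Lrp4 rose most. This receptor for agrin was at 37.1, 177 and 277 CPM in WT on days 0, 3 and 5, 26.8, 351 and 490 CPM in Per1KO, and 14.9, 319 and 477 CPM in Per2KO. WT was the highest on day 0 and the lowest on days 3 and 5. Over all genotypes Lrp4 rose by log2 3.42 ± 0.43 by day 3 (adjusted p = 0.00104) and 3.98 ± 0.43 by day 5 (adjusted p = 0.000319).

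Musk, the kinase at the centre of the pathway, was at 44.0, 66.3 and 104 CPM in WT, 24.7, 49.9 and 57.1 CPM in Per1KO, and 24.6, 48.3 and 55.4 CPM in Per2KO. Both knockouts ran side by side and under WT on each day. The rise was log2 0.87 ± 0.13 by day 3 (adjusted p = 0.00203) and 1.21 ± 0.13 by day 5 (adjusted p = 0.000249).

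Dok7, the adaptor that activates MuSK, measured 19.9, 54.3 and 67.6 CPM in WT, 31.5, 45.0 and 42.5 CPM in Per1KO, and 14.5, 38.3 and 39.3 CPM in Per2KO. Per1KO was the highest on day 0, and WT on days 3 and 5. Dok7 rose by log2 1.07 ± 0.24 by day 3 (adjusted p = 0.0119) and 1.17 ± 0.24 by day 5 (adjusted p = 0.00572), and the day 3 call was lost without the Per2KO day 0 or the Per2KO day 3 library (adjusted p up to 0.0657).

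Rapsn, which anchors receptors to one another, was at 68.1, 145 and 104 CPM in WT, 53.9, 187 and 193 CPM in Per1KO, and 64.9, 174 and 203 CPM in Per2KO. On day 5 both knockouts were near 200 CPM and WT was lower than on day 3. The rise was log2 1.42 ± 0.22 by day 3 (adjusted p = 0.0025) and 1.38 ± 0.22 by day 5 (adjusted p = 0.0018).

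Agrn, whose nerve-derived form is the clustering signal and which muscle cells also make, had the flattest course. It was at 45.7, 45.5 and 69.8 CPM in WT, 29.6, 37.3 and 33.9 CPM in Per1KO, and 28.0, 36.0 and 38.3 CPM in Per2KO. Its later libraries overlapped those of day 0, with 33.9 CPM in Per1KO day 5 against 45.7 CPM in WT day 0. The day effect was log2 0.25 ± 0.15 by day 3 (adjusted p = 0.238) and 0.42 ± 0.15 by day 5 (adjusted p = 0.052), neither passing; the day 5 difference was called under DESeq2, without the WT day 3 library and with the knockout libraries alone.

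**Figure D2:**
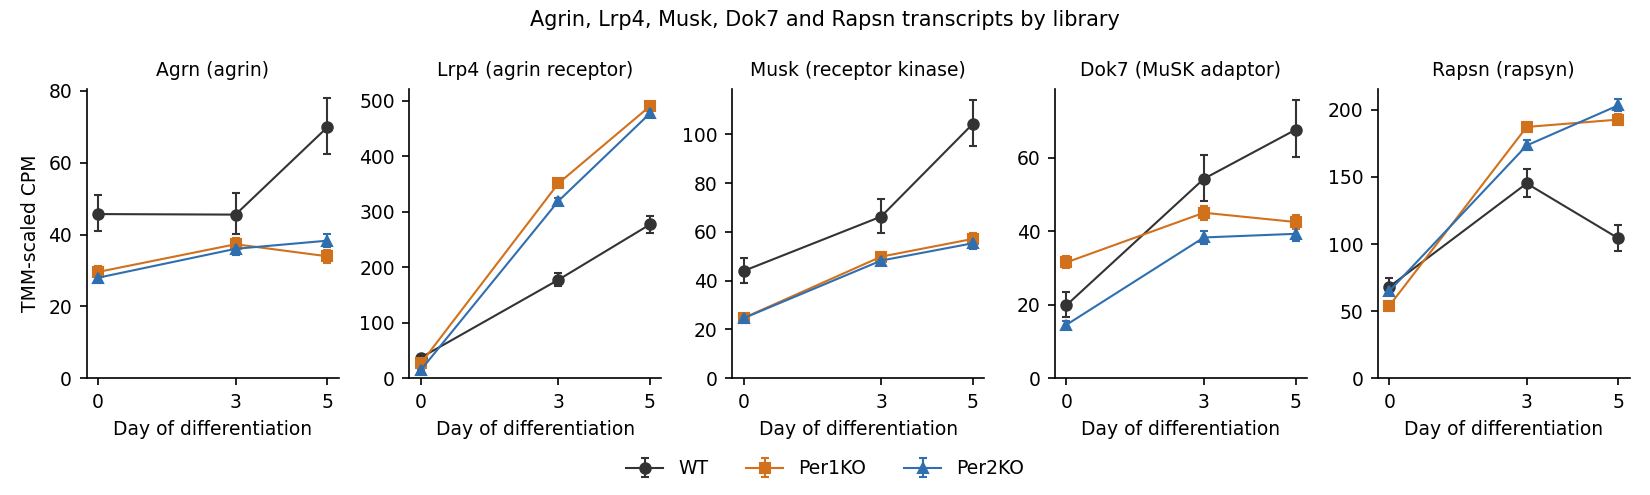
Level of Agrn, Lrp4, Musk, Dok7 and Rapsn in CPM (linear axes, one per gene) against day for WT, Per1KO and Per2KO; bars are exact 95% Poisson intervals of the count, which cover counting error only. WT lies above both knockouts throughout for Musk and Agrn and below them on days 3 and 5 for Lrp4 and Rapsn.

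Per kilobase, Rapsn was the highest of these 5 genes in every library, at 29.9 to 113 CPM per kilobase. On day 5 Agrn was the lowest in all genotypes, at 7.52 CPM per kilobase in WT, 3.66 in Per1KO and 4.12 in Per2KO. Lrp4 moved from 3.53, 2.55 and 1.42 CPM per kilobase on day 0 in WT, Per1KO and Per2KO to 26.4, 46.7 and 45.4 on day 5. In WT it then stood next to Musk, at 27.6 CPM per kilobase, while in the knockouts it was above Musk, at 15.1 and 14.7.

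Between days 3 and 5 none of the 9 tested members passed, when 1.79% of all tested genes were called. In edgeR's test 3 of the 9 had an unadjusted p under 0.05. After thinning to the smallest total it was also 3 of 9, beside 1695 of 13284 tested genes. DESeq2 called 1 member, Chrng, and 728 of 13324 genes. The largest difference of a member between these days was that of Chrng, log2 0.74 ± 0.19 (adjusted p = 0.114). Chrng was also called without the WT day 0 library and with the 6 knockout libraries alone.

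**Figure D3:**
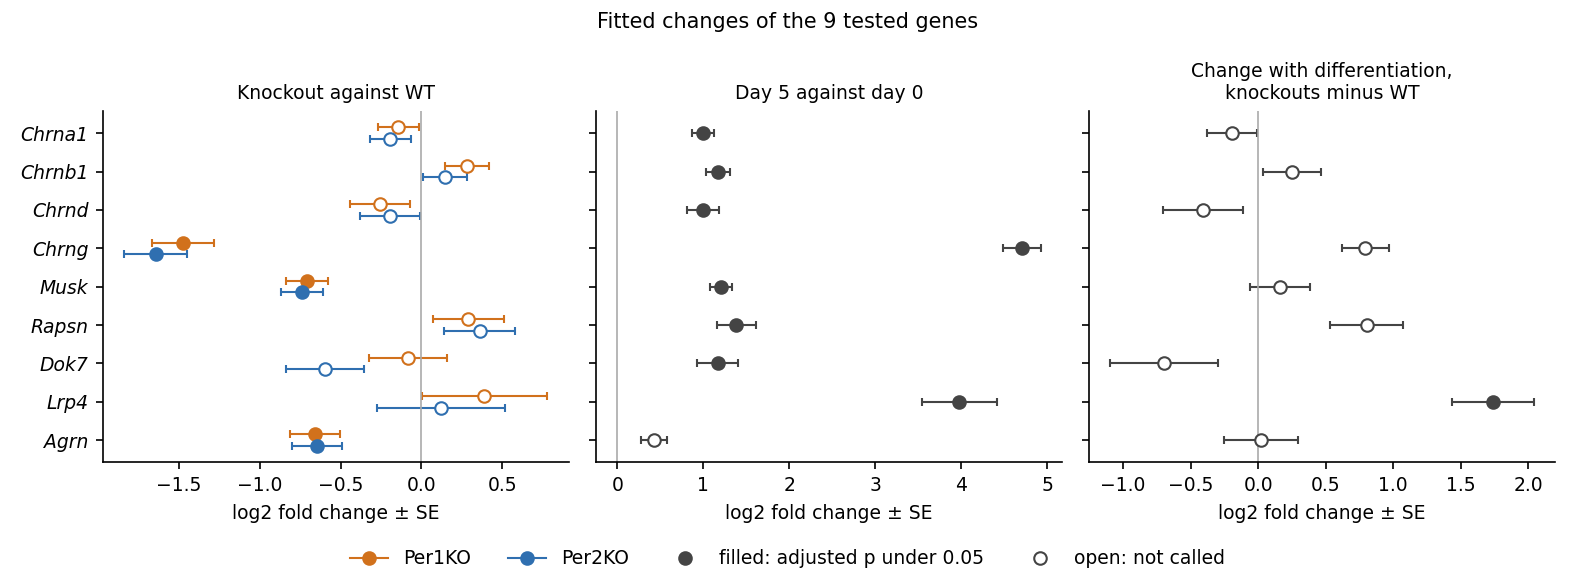
Log2 fold change of the 9 tested members with its standard error, for each knockout against WT, for day 5 against day 0, and for the difference in the response to differentiation between knockouts and WT; filled points passed the adjusted p threshold. Chrng, Musk and Agrn are filled and negative for both knockouts, and Lrp4 alone is filled for the difference in response.

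Against WT, both knockouts had less Chrng, Musk and Agrn RNA. In Per1KO 3 of the 9 tested members were called, all lower, when 19.3% of all tested genes were called and 10.1% were called lower. In Per2KO the count was 3 of 9, also all lower and of the same genes, with 19.9% of all tested genes called and 10.6% called lower. The median change of the 9 was log2 -0.14 in Per1KO and -0.20 in Per2KO, beside -0.02 and -0.01 over all tested genes. The 2 comparisons share the 3 WT libraries, so their likeness is not independent. Chrng alone was called in Per1KO without its day 0 or its day 5 library and in Per2KO without its day 5 library.

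The fall in Chrng was the largest. Against the WT library of the same day, its level in Per1KO was 0.238, 0.420 and 0.460 times as high on days 0, 3 and 5, and in Per2KO 0.232, 0.383 and 0.373 times. All 6 knockout libraries lay below the WT library of their day. The fitted difference was log2 -1.48 ± 0.19 in Per1KO (adjusted p = 0.00178) and -1.64 ± 0.19 in Per2KO (adjusted p = 0.00111). It passed under all 17 alternatives in each knockout, with adjusted p up to 0.0353 and 0.0312; with every library thinned to the smallest total it was -1.51 and -1.73 (adjusted p = 0.00331 and 0.00169).

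Musk was 0.562, 0.752 and 0.548 times the WT level in Per1KO and 0.560, 0.728 and 0.531 times in Per2KO on days 0, 3 and 5. The fitted differences were log2 -0.71 ± 0.13 (adjusted p = 0.00828) and -0.74 ± 0.13 (adjusted p = 0.00663). In Per1KO the call was lost without the Per1KO day 0 library (adjusted p = 0.0526), without the Per1KO day 5 library (adjusted p = 0.0642) and without the 3 libraries of day 5 (adjusted p = 0.142). In Per2KO it was lost without the Per2KO day 5 library (adjusted p = 0.0508) and without the 3 libraries of day 5 (adjusted p = 0.122).

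Agrn lay between 45.5 and 69.8 CPM in the 3 WT libraries and between 28.0 and 38.3 CPM in the 6 knockout libraries. The fitted differences were log2 -0.66 ± 0.15 in Per1KO (adjusted p = 0.0223) and -0.65 ± 0.15 in Per2KO (adjusted p = 0.0229). The call was lost in 8 of the 17 alternatives in each knockout, with adjusted p up to 0.237 and 0.178. The size of the difference stayed between log2 -0.84 and -0.47 in Per1KO and between -0.81 and -0.49 in Per2KO over all 17. Among the settings that ended the call were, in both knockouts, leaving out the WT day 5 library (adjusted p = 0.0751 and 0.0783), leaving out the knockout's own day 0 library (0.0822 and 0.0808) or day 5 library (0.132 and 0.106), leaving out the 3 libraries of any 1 day, and using only the 6 libraries compared (adjusted p = 0.081 and 0.0726). Thinning to the smallest total ended the call in Per1KO (adjusted p = 0.051), and leaving out the Per2KO day 3 library ended it in Per2KO (adjusted p = 0.0788).

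The remaining receptor subunits did not differ past the threshold. Chrna1 was below WT in 6 of 6 knockout libraries but by little, log2 -0.14 ± 0.12 in Per1KO (adjusted p = 0.455) and -0.19 ± 0.12 in Per2KO (adjusted p = 0.311). For Chrnb1 the differences were 0.28 ± 0.14 (adjusted p = 0.187) and 0.14 ± 0.14 (adjusted p = 0.489), with 1 of 6 knockout libraries below WT. Chrnd gave -0.26 ± 0.18 (adjusted p = 0.359) and -0.20 ± 0.18 (adjusted p = 0.488).

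Rapsn and Lrp4 each had 2 of 6 knockout libraries below WT, both on day 0, and Dok7 had 5 of 6. None of the 3 passed in either knockout: Lrp4 was at log2 0.39 ± 0.39 (adjusted p = 0.518) in Per1KO and 0.12 ± 0.40 (adjusted p = 0.859) in Per2KO. Without the WT day 0 library Lrp4 was called higher in both, by log2 1.03 (adjusted p = 0.00924) and 0.69 (adjusted p = 0.0331). Dok7 in Per2KO, at -0.60 ± 0.24 (adjusted p = 0.119), was called lower without the WT day 0 or the Per1KO day 0 library, and Rapsn in Per2KO, at 0.36 ± 0.22 (adjusted p = 0.283), was called higher without the WT day 0 library.

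Markers of myotubes differed between WT and the knockouts too. The summed level of the 5 myotube markers was 581 to 16700 CPM in WT, 27.8 to 10200 in Per1KO and 13.1 to 7888 in Per2KO, and that of 5 myoblast markers 3337 to 5128, 2137 to 4929 and 1748 to 4721 CPM. No marker of either list was at 0 in all libraries. Myog, Acta1, Mymk and Myh3 were highest in WT on each day, with Mymk in Per1KO near WT on day 5 (1075 against 1197 CPM). Ckm, muscle creatine kinase, was highest in WT on days 0 and 3 but lowest there on day 5, at 276 CPM against 434 in Per1KO and 331 in Per2KO. Myog, the myogenic factor myogenin and one of those myotube markers, was at 124, 866 and 1059 CPM in WT, 5.35, 261 and 351 CPM in Per1KO, and 2.91, 226 and 270 CPM in Per2KO. The Pearson correlation of log2 CPM with Myog was taken over the 9 libraries. It was 0.966 for Chrng, 0.949 for Musk, 0.871 for Chrna1, 0.839 for Lrp4 and 0.799 for Dok7. For Agrn it was 0.747, for Chrnb1 0.744, for Rapsn 0.72, for Chrnd 0.716 and for Chrne 0.51. Agrn, called lower in both knockouts, thus lay under Lrp4 and Dok7, which were not called. These values are a description, since the libraries share genotypes, days and depths. The part of the myotube markers in the lower levels was not tested.

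**Figure D4:**
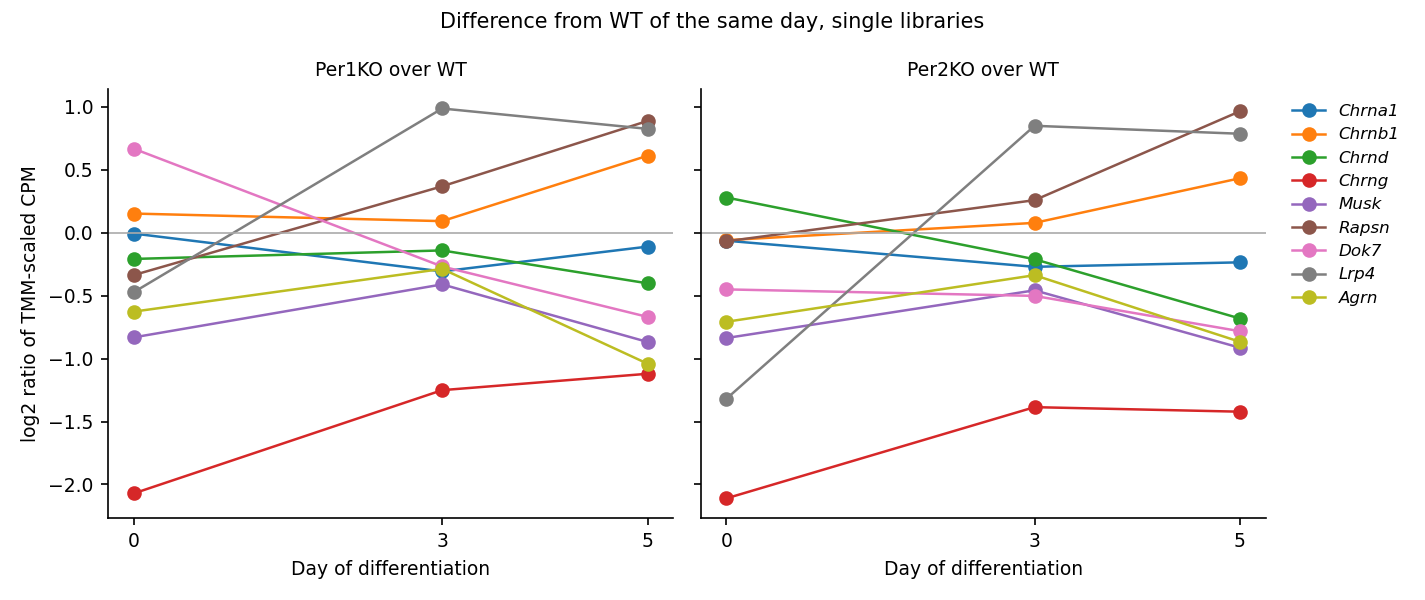
Log2 ratio of each knockout library to the WT library of the same day for the 9 tested members, one point per day and knockout, with no error since each is 1 library over 1 library. Chrng, Musk, Agrn and Chrna1 stay below 0 on all days in both knockouts, Chrna1 only just in Per1KO day 0 (-0.0081). Lrp4 and Rapsn cross from below 0 on day 0 to above 0 on days 3 and 5, Rapsn from only just below in Per2KO (-0.069).

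The response to differentiation itself differed between the knockouts and WT for Lrp4. This was tested as the difference, between knockouts (either) and WT, in the change from day 0 to days 3 and 5. It was called for 1 of the 9 tested members, higher, when 4.95% of all tested genes were called and 3.5% were called higher. From day 0 to day 5 Lrp4 multiplied 7.47-fold in WT, 18.3-fold in Per1KO and 32.1-fold in Per2KO, and from day 0 to day 3 4.78-fold, 13.1-fold and 21.5-fold. The smallest fold in a knockout was above the largest in WT. The difference in response was log2 1.74 ± 0.30 (adjusted p = 0.0274), and it was lost without the Per2KO day 0 library (1.37, adjusted p = 0.0647) and without the Per2KO day 3 library (1.68, adjusted p = 0.0784). With every library thinned to the smallest total it was 1.63 (adjusted p = 0.0199). It rests on a single WT library of day 0.

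Chrng came close to the threshold in the same test, at log2 0.79 ± 0.18 (adjusted p = 0.0512). Its fold from day 0 to day 5 was 17.9 in WT, 34.6 in Per1KO and 28.9 in Per2KO, so the fold was larger in the knockouts, from a lower start, and their day 5 level was still below that of WT. Chrng was called under DESeq2 (0.78, adjusted p = 0.00433), after thinning (1.16, adjusted p = 0.0182), with no filter on low counts, and without the WT day 3 library (adjusted p = 0.0342) or the WT day 5 library (adjusted p = 0.0299). Rapsn, at 0.81 ± 0.27 (adjusted p = 0.132), was called without the WT day 3 library, and Dok7 had the largest negative value, -0.70 ± 0.40 (adjusted p = 0.343).

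No member separated Per1KO from Per2KO, the only pair of genotypes with libraries of like depth. Of the 9 tested members 0 were called, and over all 13324 tested genes 0%, with 88 at an unadjusted p under 0.05 and 1 called by DESeq2. At an unadjusted p under 0.05 the members' count was also 0, and DESeq2 called 0 of them. The largest difference was that of Dok7, log2 0.51 ± 0.23 (adjusted p = 1), which came mostly from day 0, where Per1KO had 2.17 times the Per2KO level; on days 3 and 5 it had 1.18 and 1.08 times. Lrp4 on day 0 was also higher in Per1KO, 26.8 against 14.9 CPM, and was 1.10 and 1.03 times the Per2KO level on the later days. Fewer genes reached an unadjusted p under 0.05 than that share of the tested genes, so the p-values of this comparison run large. The spread was estimated over all 9 libraries, WT included, and whether that is the reason was not tested. A p that misses the threshold does not show that the knockouts were alike.

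Other genes of the synapse were taken as 8 lists of 73 genes, of which 55 passed the filter. By day 5, 24 of the 55 rose and 6 fell, with a median of log2 0.35, beside 23.2% of all tested genes called higher and 46.1% called in either direction. In Per1KO 0 of the 55 were called higher and 8 lower, and in Per2KO 1 higher and 8 lower, with medians of -0.19 and -0.17; of all tested genes 10.1% and 10.6% were called lower. For the difference in response 8 were higher and 0 lower, beside 3.5% of all tested genes called higher. Between the knockouts 0 were called.

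**Figure D5:**
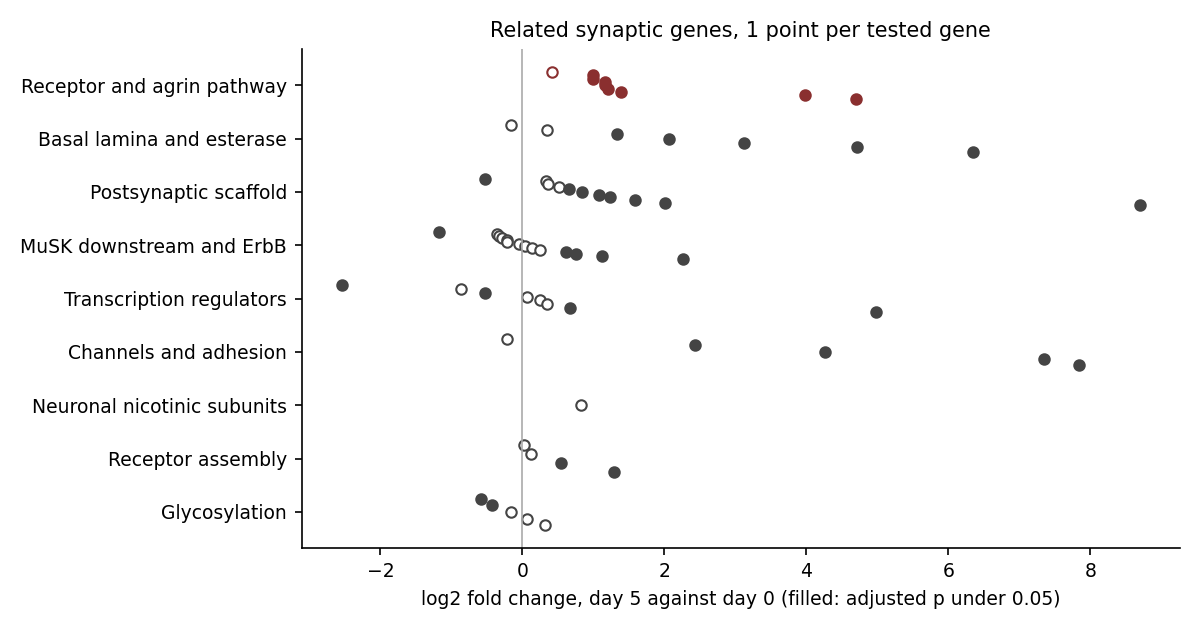
Log2 fold change from day 0 to day 5 of each tested gene of the related lists, by list, with filled points for genes that passed the adjusted p threshold. Cacna1s (7.85) and Scn4a (7.35) lie furthest up apart from Dmd, whose fitted value of 8.70 rests on day 0 counts of 0 or 1 and is no bound.

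In the basal lamina and esterase list, 5 of 7 tested genes rose by day 5 and 0 fell, beside 23.2% of all tested genes called higher. Colq, the collagen tail that anchors acetylcholinesterase, went from 0.282 to 5.93 CPM in WT, from 0.122 to 9.98 in Per1KO and from 0.0393 to 7.39 in Per2KO (log2 6.35 ± 0.4). On day 0 its WT and Per2KO levels were below those of 3 counts, 0.423 and 0.0590 CPM. The size of its fold is therefore uncertain. Lama4, the laminin alpha 4 chain, was at 2.96, 19.7 and 44.4 CPM in WT, 0.162, 3.60 and 6.76 in Per1KO, and 0.275, 5.04 and 10.1 in Per2KO. It had the largest called fall of all lists in Per1KO, log2 -2.86 ± 0.29 (adjusted p = 0.000542), and was lower by -2.31 in Per2KO. Ache itself, acetylcholinesterase, never passed 2.64 CPM.

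Of the 11 postsynaptic scaffold genes, 7 rose by day 5 and 1, Sntb2, fell, beside the same 23.2%. Dmd, which encodes dystrophin, had counts of 0, 1 and 19 in WT, 1, 33 and 301 in Per1KO, and 0, 27 and 154 in Per2KO, the largest called rise of the lists by day 5 and between days 3 and 5 (log2 3.19 ± 0.31, adjusted p = 0.00454). Dag1, dystroglycan, went from 420 to 1081 CPM in WT, from 306 to 1496 in Per1KO and from 247 to 1372 in Per2KO (log2 2.02), and its response was larger in the knockouts by 1.03 ± 0.19 (adjusted p = 0.0293).

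The 5 channel and adhesion genes were the list with the highest median by day 5, log2 4.26, and 4 of the 5 rose, beside 23.2% of all tested genes called higher. Cacna1s, the voltage sensor of excitation-contraction coupling, was at 9.45, 217 and 364 CPM in WT, 0.304, 136 and 292 in Per1KO, and 0.157, 117 and 215 in Per2KO. It had the largest called rise of the lists by day 3, log2 6.90 ± 1.03 (adjusted p = 0.00225), and the largest called difference in response, 4.69 ± 0.31 (adjusted p = 0.00178). Scn4a, the muscle sodium channel, reached 82.3 CPM in WT day 5 against 36.1 and 23.3 in the knockouts, and was called lower in both, by -1.21 and -1.72. Kcnn3 and Ncam1 were called lower in both as well.

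In the list of MuSK effectors and ErbB receptors, 4 of 14 rose by day 5 and 1, Src, fell, a share near the 23.2% of all tested genes called higher. Rac1, a small GTPase of the actin skeleton, was the only gene of all lists called higher in a knockout, by log2 0.40 ± 0.12 in Per2KO (adjusted p = 0.0457). Erbb3, a receptor for neuregulin, was lower in both, by -0.78 and -0.97. Among 8 tested transcription factors, Myog and Myod1 rose by day 5 and Etv4 and Gabpb1 fell, 2 of 8 higher, again near 23.2%. The rise of Myod1 lay mainly in the knockouts, which began lower. From day 0 to day 5 it went from 154.5 to 164.5 CPM in WT, 87.2 to 137.5 in Per1KO and 58.6 to 145 in Per2KO. Etv4, an Ets factor, had the largest called fall of the lists by day 3 (log2 -1.78 ± 0.27, adjusted p = 0.00222) and by day 5 (-2.55). Myog had the largest in Per2KO, -3.18 ± 0.73 (adjusted p = 0.0217), and was lower by -2.80 in Per1KO.

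The neuronal receptor subunits were nearly absent. Of 11, only Chrnb2 passed the filter, with at most 1.32 CPM, and Chrna3, Chrna7 and Chrnb3 had 0 counts in all libraries. Of 4 tested receptor assembly genes, 2, Lynx1 and Prkar1a, rose by day 5. Of 5 genes that serve protein glycosylation and are known from congenital myasthenia, 0 rose and 2, Dpagt1 and Alg2, fell. Of all tested genes, 23.2% were called higher by day 5 and 46.1% in either direction. Gmppb was lower in both knockouts, by log2 -0.85 and -1.09, beside 10.1% and 10.6% of all tested genes called lower. Colq, Dag1, Scn4a, Kcnn3, Ncam1, Erbb3, Lynx1, Prkar1a, Dpagt1, Alg2, Gmppb and other genes of the lists beyond the largest rise and fall per comparison were named after their values were seen.

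The tested genes closest to Chrng were found by Pearson correlation of log2 CPM over the 9 libraries. They were Pkhd1 (r 0.999), Jakmip1, Cnot6l, Klhl40 and Myoz2 (each 0.998). Such a correlation does not compare the size of a change. Cnot6l ran from 98.2 to 206 CPM, while Chrng ran from 10.4 to 806 CPM. On day 0 Pkhd1 was at 0.423, 0.0203 and 0 CPM in WT, Per1KO and Per2KO, not above the level of 3 counts. Klhl40, a kelch protein of the sarcomere, was at 6.20, 82.5 and 117 CPM in WT, 1.32, 32.4 and 52.2 in Per1KO, and 0.885, 28.7 and 44.0 in Per2KO. Like Chrng, it was highest in WT on each day. Among the closest to Chrne were Gm42732 (0.918), Snx19, Slc2a4 and Setd7 (0.896), a likeness that rests on Chrne counts of 0 to 16. All points share the same 3 genotypes, days and depths, and these correlations describe the 9 libraries only.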

How the data were processed

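RNA of 9 C2C12 libraries was measured by single-read sequencing of poly(A)-selected TruSeq libraries, per the labels' protocols. The authors deposited whole-number read counts per Ensembl gene with no normalization. Per the submitters' processing notes, CASAVA 1.8 and HISAT2 2.1.0 were used with mm10. The counting program, annotation and use of strand are not given in the sources used here. Symbols were matched for 47310 of 47729 identifiers, and positions and exon lengths came from GENCODE M21 on GRCm38.

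The 13324 genes that reached 1 CPM in 3 or more libraries were tested with edgeR 4.0.16 (quasi-likelihood, robust, TMM; limma 3.58.1, R 4.3.3) and Benjamini-Hochberg adjustment at 0.05. The additive model of genotype and day left 4 residual degrees of freedom, and that of the response to differentiation 3. Standard errors came from the log2 fold change and F. Single libraries were compared by CPM with no test; a count of 0 was set to 3 counts for bounds, and intervals are exact at 95%. Exact permutation tests used SciPy 1.17.1. The scripts were tested on simulated data. Alternatives were DESeq2 1.42.0, other size factors, no filter, thinning to the smallest total, leaving out libraries, and fits of 6 libraries. Leaving out the 3 libraries of 1 day was chosen after seeing the data.

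Named were the 10 members, the related-list gene with the largest called rise and the one with the largest called fall in each of the 7 comparisons, and the 5 genes most like Chrng and Chrne, of which 1 is not reported here. Members and lists were chosen with earlier results of these data known.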

Additional observations from a re-analysis of the deposited data

Results flagged for a closer look

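The change of Lrp4 from day 0 to days 3 and 5 differed between the knockouts and WT in the test of that difference itself, the interaction term of edgeR's quasi-likelihood fit (log2 1.74 ± 0.30, adjusted p = 0.0274). The level rose from 37.1 to 277 CPM by day 5 in WT, from 26.8 to 490 CPM in Per1KO and from 14.9 to 477 CPM in Per2KO. All 9 libraries enter that value, with 1 WT library on day 0. The call was lost without the Per2KO day 0 library (log2 1.37) and without the Per2KO day 3 library (log2 1.68). Depth and lane cannot be told apart from genotype here either.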

How the results depend on the processing

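No paired analysis was possible because each genotype and day has 1 library and the labels give no replicate number; day and genotype are already terms of each fit. With 1 library left out in turn, the members called ranged from 1 to 4 for Per1KO against WT, 1 to 6 for Per2KO against WT, 0 to 0 between the knockouts, 6 to 7 for day 3 against day 0, 8 to 9 for day 5 against day 0, 0 to 1 for day 5 against day 3 and 0 to 3 for the difference in response; the genes called ranged from 1167 to 3461, 1157 to 3594, 0 to 0, 2157 to 6246, 3713 to 7351, 0 to 735 and 49 to 2179. The low member counts against WT came without the Per1KO day 0 or day 5 library and without the Per2KO day 5 library, and the count of 6 without the WT day 0 library. The difference in response could not be fitted without that library. In the tests over all genes, no member called in the analysis as reported changed sign.

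Using only the 6 libraries compared, 1362 genes were called in Per1KO and 1229 in Per2KO, against 2575 and 2652; without the 3 libraries of day 3, 890 and 807; without those of day 5, 685 and 753, with 1 member called in each. Between the knockouts, DESeq2 called 1 gene and no filter 1. With the knockout libraries alone, 7479 genes were called for day 3 against day 0, against 4664. For day 5 against day 3, where 238 genes and 0 members were called, DESeq2 gave 728 and 1, no filter 370 genes, and the knockouts alone 1355 and 1. For the difference in response, DESeq2, no filter and thinning each called 2 members, and DESeq2 1464 genes against 659. Some of these fits used fewer than the 9 libraries, and the cause of the changes was not tested.

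Values that did not pass in the analysis as reported changed sign as follows (log2). Without the libraries of day 5, Per1KO against WT gave Dok7 0.20, Per2KO against WT Chrnd 0.034 and Lrp4 -0.26, and Per1KO against Per2KO Agrn 0.065; without those of day 3, Per2KO against WT Lrp4 gave -0.28; without those of day 0, Per1KO against Per2KO gave Chrnd 0.17 and Rapsn 0.0088. Thinning gave Agrn 0.058 between the knockouts. With the knockouts alone, day 5 against day 3 gave Rapsn 0.13, Dok7 -0.017 and Agrn -0.021. With 1 library left out, the ranges that crossed 0 were, in Per1KO, Dok7 -0.44 to 0.16; in Per2KO, Chrnb1 -0.0089 to 0.22, Chrnd -0.44 to 0.0024 and Lrp4 -0.22 to 0.69; between the knockouts, Chrnd -0.25 to 0.18, Musk -0.043 to 0.099, Rapsn -0.22 to 0.11, Lrp4 -0.11 to 0.53 and Agrn -0.12 to 0.12; from day 3 to day 5, Rapsn -0.18 to 0.21 and Dok7 -0.095 to 0.32; in the response, Musk -0.060 to 0.40 and Agrn -0.29 to 0.35. The log2 ratio of Chrng to Chrne, knockouts minus WT, was -0.73 after thinning; day 5 minus the earlier days was 0.0068 with 1 added to each count, 1.33 with 5, 0.70 after thinning, 0.087 without Per1KO and 0.62 without day 3. With 5 added, knockouts minus WT and the later days minus day 0 reached the smallest exact permutation p of 0.037 (adjusted p = 0.0556). The 5 libraries with 0 Chrne counts limit that ratio by their depth.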
